A study of Mus musculus with 2 samples.

Results

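The genes of fatty acid oxidation in mitochondria and peroxisomes were compared between adipose tissue of C57BL/6 mice, an inbred strain, on a normal diet (CE-2 chow, the control) and on a high fat diet (HFD32, given to induce obesity). Both groups carried no other treatment in the labels, were fed from 6 to 18 weeks of age, and were each measured on 1 Affymetrix array of RNA pooled from 3 animals. Neither the depot of the fat nor the animals' sex is stated in the sources used here. There are no replicates, so each value below is a single array value, a difference compares 2 pools, and no test between the diets was possible. The set has 32 genes chosen by symbol, and a probe set (a group of probes for a transcript) was taken only where the platform annotation gives it that symbol alone. This left 31 genes of the 18193 on the array, measured by 58 probe sets. Cpt1b, the muscle-type carnitine palmitoyltransferase, is named only on a probe set that carries more than its symbol and was not analysed here.

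Fatty acids are burned mainly in mitochondria. Long-chain acyl groups enter as carnitine esters through the carnitine shuttle, are shortened by the repeated dehydrogenase, hydratase, dehydrogenase and thiolase steps of beta-oxidation, and pass electrons from the first of these steps through the electron transfer flavoprotein to the respiratory chain. Peroxisomes shorten very long and branched chains with enzymes of their own and hand the products on. White fat is better known for storing and releasing fatty acids than for burning them, while brown fat, muscle and liver oxidise them at high rates. Many of these genes are textbook targets of the nuclear receptors of the PPAR family.

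A gene was represented by its brightest probe set. The difference is the log2 signal under high fat diet minus that under normal diet, so that 1 is a 2-fold ratio, and 2 levels given for a gene are always those of the normal and then the high fat diet. All 31 genes lay above the floor, the median level of all probe sets (5.44 on the log2 scale), and 11778 genes of the array did so. The only error available is that between probe sets of the same gene, with an SD of 0.27 on the log2 scale over 5131 genes. It covers the probes and not the animals, the dissection or the RNA.

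The levels of the oxidation genes were close on the 2 arrays. Of the 31 genes, 16 were higher under high fat diet and 15 lower, beside 49.9% and 49.3% of all genes above the floor. None was at least 2-fold higher or lower, where 3.28% of all genes were 2-fold higher and 3.29% 2-fold lower, so that a count of 0 among 31 genes is near the background. At a limit of 1.5-fold, 2 genes were higher (Cpt1a and Acox3) and 0 lower, beside 8.2% and 8.52% of all genes. The median difference was 0.02, with quartiles at -0.14 and 0.29, against a median of 0 and quartiles at -0.23 and 0.23 over all genes. The differences ran from -0.50 for Acot2 to 0.84 for Cpt1a. In 18 genes the difference was within the probe set SD of 0.27, in 9 it was higher by more and in 4 lower by more. Over all genes, 22.1% were higher and 22.2% lower by more than that SD.

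**Figure D1:**
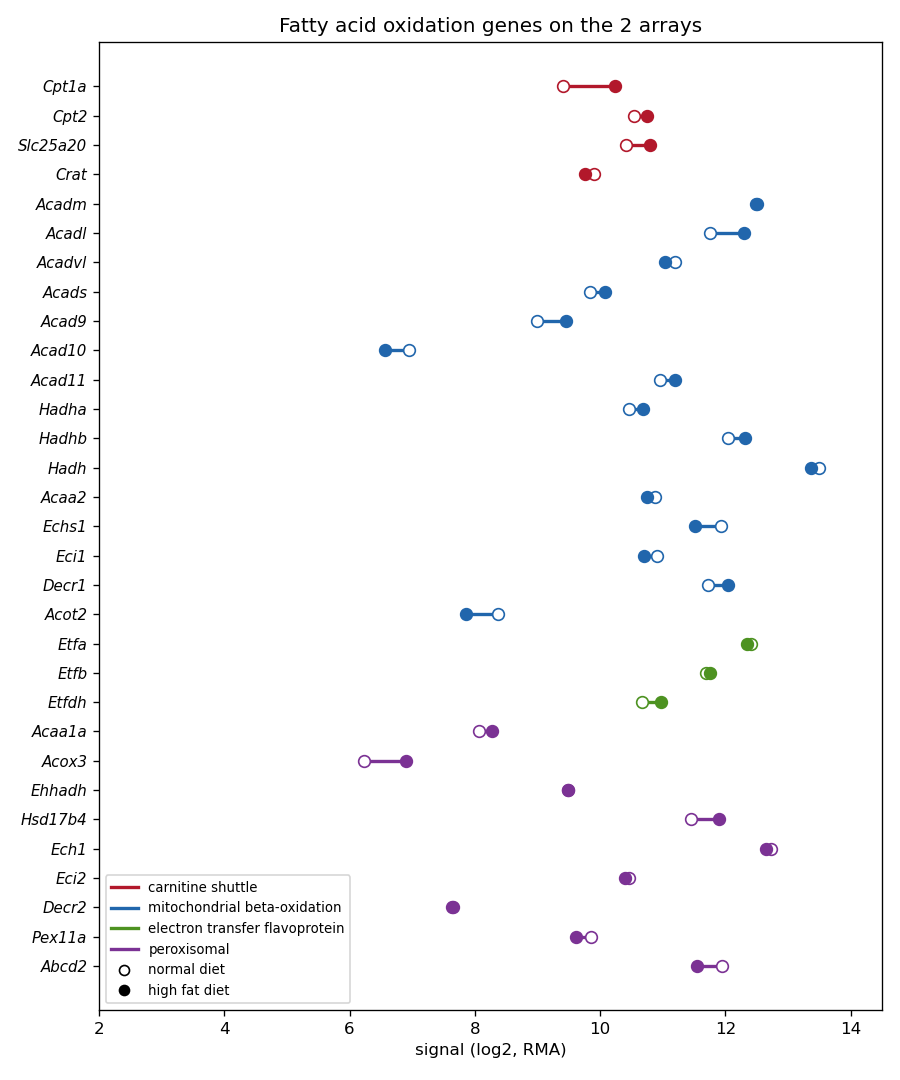
Log2 signal (RMA) of each of the 31 fatty acid oxidation genes for normal diet (open circles) and high fat diet (filled circles), coloured by step, with 1 array per diet and hence no error bars. The longest line is that of Cpt1a, from 9.40 to 10.24, and those of Acadm, Ehhadh and Decr2 are too short to see.

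The carnitine shuttle had the highest median of the 4 steps, 0.30 over 4 genes. Cpt1a, the outer membrane enzyme that joins long-chain acyl groups to carnitine and is inhibited by malonyl-CoA, had a log2 level of 9.40 under normal diet and 10.24 under high fat diet. It was thus 1.79-fold higher, a difference larger than that of 95.5% of all genes. No other oxidation gene lay above 0.70, the 95th percentile of the gap between the differences of 2 probe sets of a gene. This gap was taken over the 3105 genes with exactly 2 probe sets above the floor. Of all genes, 4.5% had a higher difference than Cpt1a, and 8.2% were at least 1.5-fold higher. At that 1.5-fold limit, 2 of the 31 oxidation genes (Cpt1a and Acox3) were higher, a count near this background. The share of all genes above 0.70 was not computed. The other 2 probe sets of Cpt1a were higher as well, by 0.74 and 0.35. Slc25a20, the carrier that takes acylcarnitine across the inner membrane, had 10.42 and 10.80, and its probe sets differed by 0.39 and 0.43. Cpt2, which turns acylcarnitine back into acyl-CoA on the inner side, had 10.54 and 10.75, a difference of 0.21, within the probe set SD, and its dim second probe set differed by 0.11. The 3 measured genes of the long-chain route were therefore all higher, to unequal degrees, Cpt1a and Slc25a20 by more than the probe set SD. Crat, which makes acetylcarnitine and other short-chain esters and is not needed for the entry of long chains, had 9.91 and 9.76, and its 3 probe sets differed by -0.15, -0.11 and 0.09. Taken over the median probe set instead of the brightest, the value for this step was 0.28.

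The upstream sequences of Cpt1a and Slc25a20, the carnitine shuttle genes that were higher by more than the probe set SD, are shown because promoters of this pathway are known for nuclear receptor elements. Each line gives the 250 bases before the RefSeq start site in GRCm38.p6, 5′ to 3′ on the strand of the gene. Cpt1a lies at chr19:3323051-3323300 on the plus strand and Slc25a20 at chr9:108661886-108662135 on the plus strand. Capitals mark matches on either strand to the hexamer AGGTCA (bound by nuclear receptors), the GC box GGGCGG and the CCAAT box, and no match to any other motif searched was found in the sequences shown.
Cpt1a: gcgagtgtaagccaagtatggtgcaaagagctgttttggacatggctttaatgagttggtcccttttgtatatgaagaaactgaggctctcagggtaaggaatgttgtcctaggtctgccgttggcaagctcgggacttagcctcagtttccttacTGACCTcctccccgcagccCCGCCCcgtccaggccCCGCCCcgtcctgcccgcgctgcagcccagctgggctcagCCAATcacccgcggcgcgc
Slc25a20: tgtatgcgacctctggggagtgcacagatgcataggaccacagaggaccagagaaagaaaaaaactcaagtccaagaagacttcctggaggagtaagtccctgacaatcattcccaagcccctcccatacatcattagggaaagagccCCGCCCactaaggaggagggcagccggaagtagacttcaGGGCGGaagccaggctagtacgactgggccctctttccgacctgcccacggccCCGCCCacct
The Cpt1a window holds 1 hexamer, read here as TGACCT, 2 GC boxes and 1 CCAAT box, and the Slc25a20 window holds 3 GC boxes. Of the 32 genes, 25 had an entry in the promoter table. The hexamer stood in 4 of the 25 windows (Acadm, Echs1, Acadvl and Cpt1a), beside 11.2% of 12187 windows of genes above the floor. The GC box stood in 17 of 25, beside 56.4% of the windows of genes above the floor, and the CCAAT box in 10 of 25, beside 34.5%. The PPAR-type element, 2 such hexamers in the same direction with 1 base between them, was in 0 of the 25 windows and in 0.0246% of those of genes above the floor. The estrogen-related receptor element TNAAGGTCA, which also contains it, was in 0 of 25 and in 0.706%. The cAMP element TGACGTCA was in 0 of 25 and in 2.47%. These are matches of letters, and a window without a match says nothing of elements elsewhere.

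The genes of mitochondrial beta-oxidation went both ways. Of 15 genes, 8 were higher and 7 lower, with a median of 0.02. The first step is taken by acyl-CoA dehydrogenases that differ in the chain length they accept. Acadvl, for very long chains, had 11.20 and 11.03, a difference of -0.16. Acadl, for long chains, had 11.76 and 12.30 and was 1.45-fold higher, the farthest up of the 15 genes. Its other probe set, dim and below the floor, differed by 0.30. Acadm, for medium chains, had 12.49 and 12.51, a difference of 0.02, and Acads, for short chains, had 9.84 and 10.08, a difference of 0.25. Among the 4 classical dehydrogenases the difference thus followed no order of chain length, and that of Acadl alone was above the probe set SD.

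The other dehydrogenases of the family are less tied to the pathway. Acad9, which also serves in the assembly of respiratory complex I, had 8.99 and 9.46, and its 3 probe sets were higher by 0.46, 0.60 and 0.53. Acad9 and Cpt1a were the 2 oxidation genes with 3 probe sets above the floor that were all higher. Acad10 had 6.95 and 6.56 on its brightest probe set, a difference of -0.39, while its other probe set differed by 0.13. Both can match several transcripts, so its direction was not settled. Acad11, whose product is found in peroxisomes as well as mitochondria, had 10.96 and 11.19, and its probe sets differed by 0.24 and 0.10.

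The later steps of the spiral differed little. Hadha and Hadhb encode the alpha and beta subunits of the trifunctional protein of the inner membrane, which carries out the last steps on long chains. Hadha had 10.46 and 10.69, a difference of 0.23. Hadhb had 12.04 and 12.32, a difference of 0.27, with 0.05 and -0.43 on its other probe sets, the last of which was its dimmest (6.49 and 6.06). Both subunits were thus slightly higher on their brightest probe sets, by nearly the same amount. The 3 enzymes of these later steps for shorter chains were lower, while Acads, the short-chain dehydrogenase of the first step, was higher (0.25). Echs1, the short-chain enoyl-CoA hydratase, had 11.92 and 11.52, a difference of -0.41. Hadh, the matching hydroxyacyl-CoA dehydrogenase, had 13.50 and 13.37, and its 3 probe sets differed by -0.13, -0.10 and -0.23. Acaa2, the matching thiolase, had 10.87 and 10.74, and its 3 probe sets differed by -0.13, -0.11 and -0.11. All 7 probe sets of these 3 genes were lower, though only Echs1 by more than the probe set SD.

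Upstream sequences are shown for Hadhb, since this stretch lies between the start sites of both subunit genes of the trifunctional protein. They are also shown for Acadl as the farthest up of the mitochondrial beta-oxidation genes and for Acot2 as the farthest down. Capitals mark the same motifs. In RefSeq, Hadha lies on the minus strand and Hadhb on the plus strand of chromosome 5, head to head, with 272 bases between their start sites, and their upstream windows share 228 bases. The Hadhb window is chr5:30155003-30155252 on the plus strand, that of Acadl chr1:66863310-66863559 on the minus strand and that of Acot2 chr12:83987611-83987860 on the plus strand.
Hadhb: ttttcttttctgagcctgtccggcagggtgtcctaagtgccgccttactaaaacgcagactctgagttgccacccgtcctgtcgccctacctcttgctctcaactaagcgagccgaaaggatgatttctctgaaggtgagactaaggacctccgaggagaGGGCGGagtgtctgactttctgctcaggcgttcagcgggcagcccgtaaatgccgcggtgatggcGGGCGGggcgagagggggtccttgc
Acadl: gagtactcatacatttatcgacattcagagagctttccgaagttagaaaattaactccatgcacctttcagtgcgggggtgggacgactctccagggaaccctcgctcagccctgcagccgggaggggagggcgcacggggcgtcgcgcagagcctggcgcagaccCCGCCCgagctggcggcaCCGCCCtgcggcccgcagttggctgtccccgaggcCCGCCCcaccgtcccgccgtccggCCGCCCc
Acot2: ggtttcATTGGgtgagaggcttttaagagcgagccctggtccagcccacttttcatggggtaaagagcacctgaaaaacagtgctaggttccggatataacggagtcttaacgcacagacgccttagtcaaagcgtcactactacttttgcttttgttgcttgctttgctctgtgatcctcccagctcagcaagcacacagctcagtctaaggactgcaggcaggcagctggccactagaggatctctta
The Hadhb window holds 2 GC boxes and the Acadl window 4. The Acot2 window holds 0 GC boxes and 1 CCAAT box, read here as ATTGG.

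Helper enzymes prepare unsaturated acyl-CoA for the spiral. Decr1, the mitochondrial dienoyl-CoA reductase, had 11.72 and 12.03, and its probe sets were higher by 0.31 and 0.60. Eci1, the mitochondrial enoyl-CoA isomerase, had 10.90 and 10.71, a difference of -0.20. Acot2, a thioesterase that frees fatty acids from CoA inside mitochondria, had 8.36 and 7.86, a difference of -0.50, and its dim second probe set differed by -0.18. It is a close relative of Acot1, and a probe set that names both was not used.

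The electron transfer flavoprotein takes the electrons from the acyl-CoA dehydrogenases. Etfa, its alpha subunit, had 12.40 and 12.35 (-0.06), and Etfb, the beta subunit, had 11.69 and 11.76 (0.07). Both subunits of this heterodimer were thus at nearly the same level on the 2 arrays. Etfdh, the inner membrane oxidoreductase that passes the electrons on to ubiquinone, had 10.67 and 10.97, a difference of 0.31, and its very dim second probe set also differed by 0.31. The median of these 3 genes was 0.07.

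**Figure D2:**
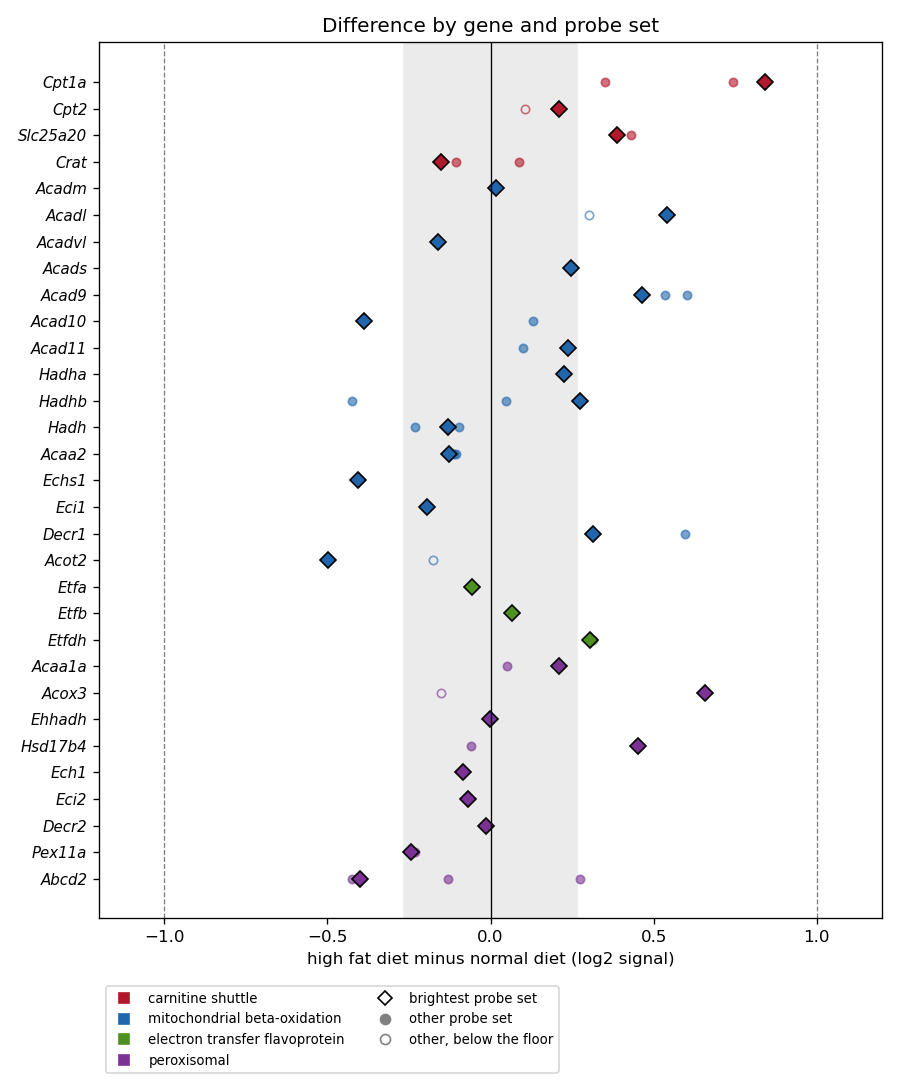
Difference in log2 signal, high fat diet minus normal diet, for every probe set of each oxidation gene. Diamonds are the brightest probe set of a gene, filled circles the others and open circles those below the floor. The grey band is the SD between the differences of a gene's probe sets (0.27) on either side of 0. Dashed lines mark 2-fold. No point reaches a dashed line, and Cpt1a is the farthest to the right.

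Among the 9 peroxisomal genes 3 were higher and 6 lower, and the median was -0.01. Abcd2, the transporter that brings very long-chain acyl-CoA into peroxisomes, had 11.94 and 11.54, a difference of -0.40. Of its other 3 probe sets 2 were lower, by 0.43 and 0.13 on the log2 scale, and 1 was higher by 0.28. Pex11a, which promotes the division of peroxisomes and is a known PPAR alpha target, had 9.85 and 9.61, and its probe sets differed by -0.24 and -0.23. These genes for import and proliferation were thus lower on their brightest probe sets, Pex11a by less than the probe set SD.

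The peroxisomal enzymes of the spiral were mixed. Acox3, an oxidase for branched chains, had 6.24 and 6.89 and was 1.58-fold higher, but its signal was dim, and its other probe set, just below the floor, differed by -0.15. Hsd17b4, the D-bifunctional protein, had 11.44 and 11.89 on its brightest probe set, a difference of 0.45, while its other probe set, nearly as bright, had 11.69 and 11.63. The values of Acox3 and Hsd17b4 therefore depended on the probe set. Ehhadh, the L-bifunctional protein, had 9.49 on both arrays. Acaa1a, the peroxisomal thiolase, had 8.06 and 8.27, and its probe sets differed by 0.21 and 0.05. Both can match several transcripts, and it has a close copy, Acaa1b, so its signal cannot be told from that of the copy with certainty.

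The helper enzymes on the peroxisomal side stayed near 0. Ech1, a dienoyl-CoA isomerase also found in mitochondria, had 12.73 and 12.64 (-0.08). Eci2, an enoyl-CoA isomerase likewise found in both, had 10.47 and 10.40 (-0.07), and Decr2, the peroxisomal dienoyl-CoA reductase, had 7.65 and 7.64 (-0.01). With Ech1, Eci2 and Acad11 counted in the other organelle, the medians changed places, with -0.08 for the mitochondrial and 0.10 for the peroxisomal genes. Which organelle had the higher median thus turned on where these 3 genes were counted.

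Like steps of the 2 organelles were set side by side. For the reduction of dienoyl-CoA, mitochondrial Decr1 differed by 0.31 and peroxisomal Decr2 by -0.01. For the isomerase step the values were -0.20 for Eci1 and -0.07 for Eci2. The thiolases Hadhb and Acaa2 of mitochondria had 0.27 and -0.13, and peroxisomal Acaa1a lay between them at 0.21. Hadha (0.23) lay between Ehhadh (-0.0029) and Hsd17b4 (0.45). By these brightest probe sets, no pair was farther apart than 0.34, the gap between Acaa2 and Acaa1a. Other probe sets would change this picture. The second of Decr1 (0.60) lay farther from Decr2, and with the second of Hsd17b4 (-0.06) Hadha was above both bifunctional proteins.

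**Figure D3:**
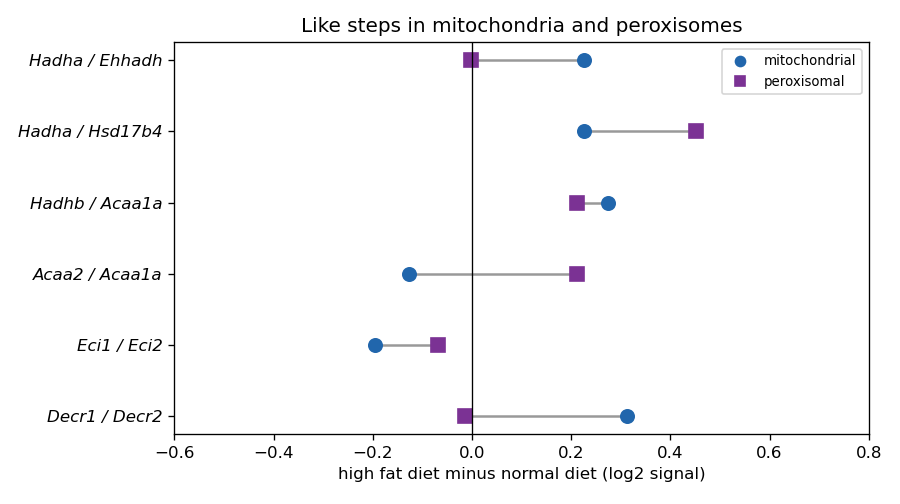
Difference in log2 signal, high fat diet minus normal diet, of mitochondrial (circles) and peroxisomal (squares) enzymes of like steps, by their brightest probe sets, with 1 array per diet. The circle lies to the right of the square for Decr1 and Decr2, Hadha and Ehhadh, and Hadhb and Acaa1a, and to the left for the other pairs.

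Where a gene had several probe sets above the floor they could be compared, which was so for 14 of the 31 genes. In 9 of them all probe sets had the same sign, and in 5 (Crat, Acad10, Hadhb, Hsd17b4 and Abcd2) they had both. Cpt1a, Slc25a20, Acad9, Acad11, Decr1 and Acaa1a were higher on all such probe sets, and Hadh, Acaa2 and Pex11a lower on all. The symbols of all 58 probe sets were the same in the RefSeq table.

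Genes that feed and control the pathway included some that were past 2-fold. The list for the control of malonyl-CoA, the inhibitor of Cpt1a, had 4 of 5 genes lower and a median of -0.80. The lower genes were Acaca, the related Acacb (-0.47) and the kinase genes Prkaa1 (-0.90) and Prkaa2 (-0.80). The list, and its lower genes too, mixes opposite effects on malonyl-CoA, so the median gives no direction for malonyl-CoA itself. Acaca, an acetyl-CoA carboxylase that makes malonyl-CoA, had 11.51 and 9.90 and was 3.06-fold lower. Mlycd, which breaks malonyl-CoA down, had 7.72 and 7.79 (0.07), the farthest up of the list. In the list for fatty acid activation and carnitine supply, 7 of the 10 genes above the floor were higher, with a median of 0.12. Bbox1, the last enzyme of carnitine synthesis, was 2.60-fold lower (7.01 and 5.63), and the acyl-CoA synthetase gene Acsl3 was the farthest up at 0.55.

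Transcriptional regulators of the pathway were mostly lower, 9 of 11 genes, with a median of -0.33 and none at least 2-fold. Hnf4a, a liver-enriched nuclear receptor, was the farthest down at -0.98 (7.20 and 6.22), and Ppard, a PPAR of many tissues, the farthest up at 0.30. Other PPAR alpha-type targets stood higher in 6 of the 7 genes above the floor, with a median of 0.57. The list had 9 genes with a probe set, and those below the floor went both ways. Pdk4, a kinase that restrains the burning of glucose, had 8.89 and 10.28 and was 2.63-fold higher. Plin2, a coat protein of lipid droplets, was 2.26-fold higher (11.94 and 13.12). Cyp4a14, an omega-hydroxylase of fatty acids, had 7.12 and 3.89, the latter under background (4.95, the 95th percentile of sensory receptor probe sets), and was thus at least 4.48-fold lower.

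Other genes of peroxisomes also went both ways. Of 12 further genes of oxidation and related steps above the floor, 4 were higher and 8 lower, with a median of -0.17. Mlycd, 1 of the higher genes, was also counted above. Acox2, an oxidase of bile acid intermediates, was 2.24-fold lower (6.16 and 4.99, close to background), and Acaa1b, the copy of Acaa1a, was the farthest up at 0.70. For the 11 measured genes of peroxisome biogenesis the median was 0.04, with 7 higher, 3 lower and 1 equal on both arrays, from -0.41 for Pex6 to 0.41 for Pex13, both needed for the import of matrix proteins. Liver expresses Bbox1, Hnf4a, Cyp4a14 and Acox2 strongly, and on the same arrays 19 of 19 hepatocyte markers were lower, whose part in these values was not tested.

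The oxidation genes were set beside 3 related groups, by counts and medians alone. Genes of respiratory complexes II to V had a median of -0.10, with 21 of 24 lower and none at 2-fold, from -0.70 for Cox7c to 0.12 for Cox6b1. Cox7c was dim (6.29 and 5.59), and the next lowest value was -0.42. The quartiles of this group, -0.19 and -0.04, were within the probe set SD of 0.27, so most of its genes were lower by small amounts only. Genes of branched-chain amino acid breakdown, a mitochondrial pathway that also passes electrons to the flavoprotein, had -0.40, with 16 of 18 lower, from -1.03 for Ivd to 0.13 for Auh. Genes of fatty acid and triglyceride synthesis had -0.16, with 14 of 22 lower and 3 of them at least 2-fold, from -1.61 for Acaca to 0.92 for Scd2. Acaca, Acacb and Lpin1 of this group were also counted in lists above. Beside these, 15 of the 31 oxidation genes were lower and their median was 0.02.

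**Figure D4:**
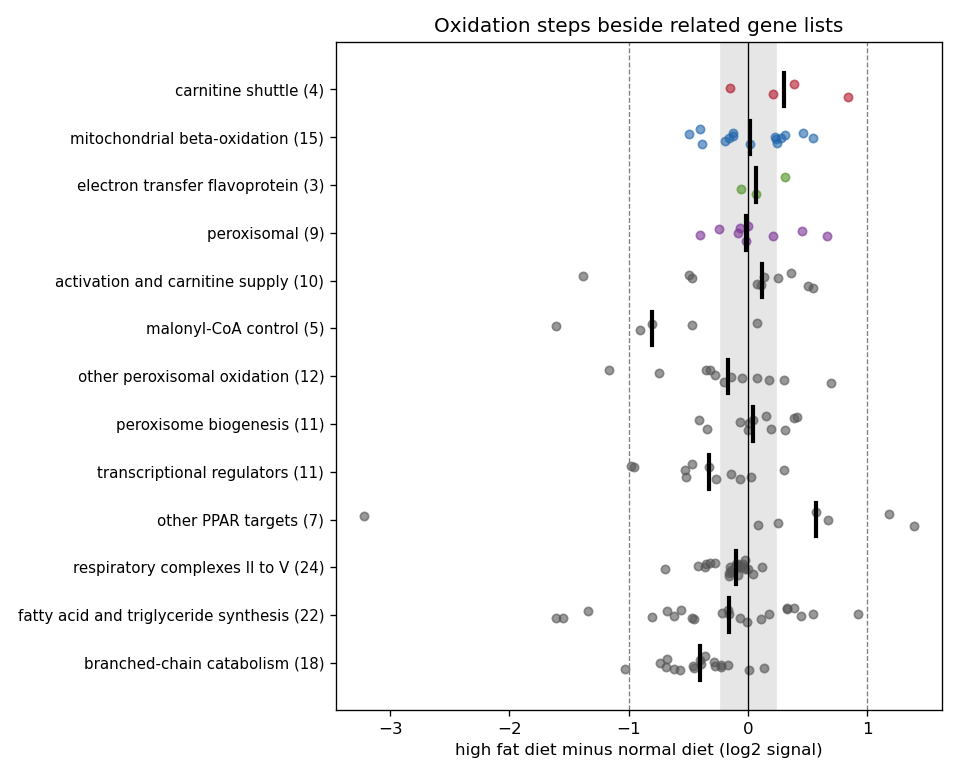
Difference in log2 signal, high fat diet minus normal diet, of the genes above the floor in the 4 oxidation steps (coloured) and in related lists (grey), with the number of genes in brackets. Points are genes, black bars medians, the grey band the quartiles of all genes (-0.23 and 0.23) and the dashed lines 2-fold. The medians of the 4 oxidation steps lie between -0.01 and 0.30, and that of malonyl-CoA control, a list of opposite effects, lies at -0.80.

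Markers of other tissues differed between the arrays, and in a bulk sample fewer cells of a type and less RNA per cell cannot be told apart. Adipoq, the gene of adiponectin and a defining marker of the labelled tissue, had 14.21 and 14.12, near the top of the scale. White adipocyte markers had a summed linear signal of 106391 and 106331 over 10 genes, 2 higher and 8 lower, from -0.74 for Slc2a4 to 1.08 for Lep. Liver and muscle express oxidation genes strongly. Of 19 hepatocyte markers all 19 were lower under high fat diet, from -6.70 for Serpina1c to -0.59 for Cyp2e1, which fat also expresses, and their summed signal was 48340 and 10407. Without Cyp2e1, left out after its values were seen, the other 18 markers summed to 33940 and 826. Alb had 13.15 and 7.91, and 0 of the 19 were under background with normal diet and 7 with high fat diet. Of 20 skeletal muscle markers 18 were lower, from -2.72 for Myh4 to 0.89 for Ryr1, and their summed signal was 8907 and 4206, with 2 and 3 under background. Acta1 had 10.78 and 10.16.

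Brown adipocyte markers had a summed signal of 1924 and 1896 over 11 genes, 6 higher and 5 lower. The range above the floor was -1.26 for Ucp1 (7.11 and 5.85) to 0.58 for Kcnk3, while Otop1, a proton channel with a mean below the floor, had 2.73 and 7.43 and was at least 5.70-fold higher. Macrophage markers were higher in 14 of 14 genes, from 0.04 for Cd163 to 3.40 for Gpnmb, with a summed signal of 14928 and 30351. Of 7 pancreas markers 6 were lower, from -5.13 for Cpb1 to 0.95 for Cela1, with a summed signal of 3159 and 2169, and of 2186 and 294 without Cela1, also left out after its values were seen. The part of these tissues and cells in the levels of the oxidation genes was not tested.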

How the data were processed

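RNA pooled from 3 mice per diet was measured on 2 arrays, 1 per diet. The authors deposited log2 signals for 45101 probe sets, made with RMA, which corrects background, normalizes the arrays to each other and sums up the probes of a set, per the submitters' processing notes. The RMA version is unknown, and the values themselves (2.04 to 14.28) gave the log2 scale. Sorted, both columns were within 0.14 of each other throughout, so a change in total RNA could not be seen. Array differences may be compressed at both ends of the scale.

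Gene symbols came from the platform annotation at GEO and were checked by Entrez ID against RefSeq (GRCm38.p6). The 64 control probe sets were left out. The brightest single-symbol probe set stood for a gene, the floor was the median of all other probe sets, and background was the 95th percentile of 83 sensory receptor probe sets. All members were named. Of the lists of further pathway genes, those at least 2-fold different and otherwise the farthest up and down were named, with every gene of the malonyl-CoA list. Of the related groups and the marker lists only the farthest up and down were, along with genes counted in 2 lists and the defining markers Alb, Acta1, Ucp1 and Adipoq. The members and lists were chosen with earlier results of these data known. Counts, medians and promoter matches were computed in Python 3.11.15 with pandas 2.3.3, and the counting was tested on simulated data. Alternatives changed the probe set rule, the floor, the background, the centring and the organelle of 3 genes. With 1 array per diet no p-value is given, and precision is limited by the number of arrays.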

Additional observations from a re-analysis of the deposited data

How the results depend on the processing

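Only the 2 rules for probe sets (the median of a gene's probe sets, or leaving out those of possibly several transcripts) could move single genes apart from each other. Of 59 values under these rules 20 changed, in 19 genes. Many of the others could not change, since a gene with 1 probe set keeps its value or drops out. The second rule could change only genes whose brightest probe set was left out. The total is therefore no measure of stability. Of the values that changed, none changed sign. That of Acox3 alone moved by more than the probe set SD, to 0.25 as the median of its probe sets. Changing the floor or the background left the values of single genes as they were, and centring each array added 0.01 to all of them, which took Ehhadh from -0.0029 to 0.0083. With a limit of 1.5-fold in place of 2-fold, 2 genes counted as higher. The medians ran from 0.02 to 0.04 for all oxidation genes, from 0.28 to 0.31 for the carnitine shuttle, from 0.07 to 0.08 for the electron transfer flavoprotein, from -0.08 to 0.12 for mitochondrial beta-oxidation and from -0.04 to 0.10 for peroxisomal genes. The last 2 crossed 0 only with Ech1, Eci2 and Acad11 moved between the organelles. With probe sets of possibly several transcripts left out, 28 genes remained, and with the floor at the 75th percentile 29. No paired analysis was possible because each diet has 1 array. With 1 pooled array per diet, a difference of any size compares these 2 pools and cannot be assigned to the diet.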
